A study of Mus musculus with 6 samples.

Results

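The cytosolic ribosomal protein genes are those whose products build the large and the small subunit of the ribosome outside mitochondria. They were taken from a deposited table of RNA counts as the symbols that start with Rpl or Rps and a digit, together with Rplp0, Rplp1, Rplp2 and Rpsa. Symbols of the ribosomal S6 kinases and of pseudogenes were left out. This gave 88 of 21878 genes. Of these, 77 were core genes, 46 of the large and 31 of the small subunit, and 11 were paralogs, retrogenes or genes named after a ribosomal protein. The table was made from tumour-associated macrophages, the macrophages found inside a tumour. KO libraries (n = 3) came from Trmt61a f/f LysmCre mice, in which Cre is expressed from the lysozyme M locus of myeloid cells and deletes Trmt61a there. WT libraries (n = 3) came from Trmt61a f/f mice, which have the same floxed alleles and no Cre. All mice had been injected with MC38, a mouse colon carcinoma line, 14 days earlier, and the macrophages were isolated by fluorescence-activated sorting. Trmt61a encodes the catalytic subunit of the tRNA methyltransferase for m1A, methylation of adenosine at a ring nitrogen, and the study asks how that modification affects translation in macrophages. The labels do not say whether a library stands for 1 mouse or a pool, so p-values measure the spread between libraries, which may be technical.

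Ribosomal proteins assemble on ribosomal RNA in near equal numbers, and their genes are usually expressed together. Most of their mRNAs begin with a cytosine followed by a run of pyrimidines, the 5′ terminal oligopyrimidine or TOP motif, through which the kinase complex mTORC1 and the RNA-binding protein LARP1 control how much of the mRNA is translated. These libraries measure RNA levels and not translation.

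Library totals ran from 18839026 to 20313597 counts in KO and from 19622763 to 20247004 counts in WT. Trmt61a had 2.13, 1.73 and 2.46 CPM (read counts relative to the scaled library total) in the KO libraries, against 8.01, 6.95 and 7.38 CPM in the WT libraries, so every library followed its label. The log2 fold change, always KO over WT here, was -1.81 (SE 0.197, edgeR adjusted p = 0.0426). The call was lost on leaving out any 1 library other than KO replicate 2, with log2 values from -1.94 to -1.69 and an adjusted p of up to 0.314. Macrophage markers summed to between 12200 and 14000 CPM in KO and between 13400 and 14800 CPM in WT. Neutrophil markers summed to 132 to 182 CPM in KO and 85.4 to 119 CPM in WT, and T and NK cell markers to 164 to 223 CPM in KO and 128 to 164 CPM in WT. Fibroblast and endothelium markers summed to 274 to 348 CPM in KO and 265 to 367 CPM in WT, epithelial tumour markers, of which Cdh1 alone passed the count filter, to 112 to 134 CPM in KO and 77 to 141 CPM in WT, and dendritic cell markers to 19.1 to 34.5 CPM in KO and 13.9 to 25.5 CPM in WT. B cell markers reached at most 2.73 CPM in KO and 1.68 CPM in WT, and erythroid markers at most 0.831 CPM in KO and 0.349 CPM in WT. In bulk samples fewer cells of a type and less RNA per cell cannot be told apart.

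The start sites show what the core genes share besides their products. Of the 77 core genes, 57 had an entry in the RefSeq promoter table of GRCm38.p6, as had all 11 paralogs and related genes. Within 50 bases on either side of an annotated start, 48 of the 57 core genes (84.2%) had a run of 8 or more pyrimidines (C or T on the gene's own strand), against 39.2% of 17491 protein-coding genes. The longest run had a median of 11 bases in core genes and 7 bases in protein-coding genes. Among the paralogs and related genes 6 of 11 (54.5%) had such a run. The windows below cover 20 bases before and 20 bases from the annotated start, 5′ to 3′, with the longest pyrimidine run of the window in capitals. The first 6 are core genes with a long run at the start, shown because it is the sequence from which a TOP motif would be transcribed, and the last 3 are related genes for contrast.
Rps6, chr4:86857348-86857387, minus strand: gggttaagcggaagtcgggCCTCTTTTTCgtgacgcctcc
Rpl35, chr2:39005112-39005151, minus strand: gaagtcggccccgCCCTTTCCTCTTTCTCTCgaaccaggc
Rpl15, chr14:18270967-18271006, minus strand: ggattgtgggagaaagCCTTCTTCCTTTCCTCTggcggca
Rpl27a, chr7:109519175-109519214, plus strand: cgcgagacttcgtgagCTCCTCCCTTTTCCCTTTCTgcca
Rps10, chr17:27635225-27635264, minus strand: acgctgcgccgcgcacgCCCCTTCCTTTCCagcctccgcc
Rplp2, chr7:141447631-141447670, plus strand: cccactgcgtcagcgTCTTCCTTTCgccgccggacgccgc
Rps27l, upstream annotated start, chr9:66946066-66946105, plus strand: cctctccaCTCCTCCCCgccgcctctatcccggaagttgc
Rpl7l1, chr17:46782637-46782676, minus strand: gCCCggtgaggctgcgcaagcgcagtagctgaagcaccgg
Rps19bp1, chr15:80264287-80264326, minus strand: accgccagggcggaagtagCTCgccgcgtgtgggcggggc

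The runs of Rps6, Rpl35, Rpl15, Rpl27a, Rps10 and Rplp2 are 10, 18, 17, 20, 13 and 10 bases long and lie across the annotated start. The longest run is 9 bases in the Rps27l window and 3 bases in both the Rpl7l1 and the Rps19bp1 window. Windows not shown also go the other way. The longest run is 3 bases in the core genes Rps3, Rpl23, Rpl10, Rpl24 and Rpl41. It is 4 bases in the core genes Rps4x, Rpl9, Rpl26 and Rps28, and 5 bases in Rpsa. The longest run is 10 bases in the related genes Rpl22l1 and Rpl32l. The 84.2% of core genes above have a run anywhere within 50 bases of an annotated start. It is not the share with a run across the start. In the 300 bases of the promoter table, the letters CCGGAAG, the core of the site bound by ETS factors such as GABP, were found on either strand in 24 of 57 core genes (42.1%) and in 12.9% of protein-coding genes. The E-box CACGTG, which MYC can bind, was found in 10.5% of core genes and 8.9% of protein-coding genes, and TATAAA in 10.5% of core genes and 14.8% of protein-coding genes, both on either strand. A match describes these letters and is not evidence that a factor binds.

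No ribosomal protein gene was called between KO and WT. All 77 core genes and 8 of the 11 paralogs and related genes passed the filter on low counts. Of those 85, 0 had an adjusted p under 0.05 with edgeR, where 2 of 12136 genes (0.0165%) had one, and 0 to 5 without single libraries, and the smallest adjusted p among the 85 was 0.713. At an unadjusted p under 0.05, 1 of the 85 was lower in KO and 0 were higher, where 3.06% of all tested genes were lower and 3.86% were higher. DESeq2, limma-voom and limma-voom with quality weights also called 0 members, where they called 29, 0 and 0 of all genes. They had 1, 1 and 2 members at an unadjusted p under 0.05. The share of all genes at that threshold with these tools is not given, so these counts cannot be weighed. The KO and WT libraries overlapped for all 85. Over all tested genes the KO libraries lay below all WT libraries for 6.3% and above them for 6.11%.

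The fold changes were small and mostly of one sign. Of the 85 log2 fold changes, 77 were negative, against 50.2% of all tested genes, with a median of -0.049 against -0.001 over all tested genes. The 827 other tested genes under 1 kb, the length class of most members, had a median of -0.045 with 521 negative. The 68 of them at least as abundant as the least abundant core gene had a median of -0.003 with 35 negative. The core genes ran from -0.14 for Rpl41 to 0.03, with a median standard error of 0.0881, so most lay within 1 standard error of 0. The median was -0.05 in each subunit, with 41 of 46 large-subunit and 30 of 31 small-subunit genes negative. The sign depended on single libraries. Without WT replicate 2, 27 of the 85 were negative and the median was 0.01. Without KO replicate 3 all 85 were negative and 7 had an unadjusted edgeR p under 0.05. In that fit 0 of 12235 tested genes were called. The share of all genes at the unadjusted threshold there is not given, so the 7 cannot be weighed. Without KO replicate 1 or KO replicate 2, 57 and 60 were negative. For 59 of the 85, the sign changed when 1 of the 6 libraries was left out.

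**Figure D1:**
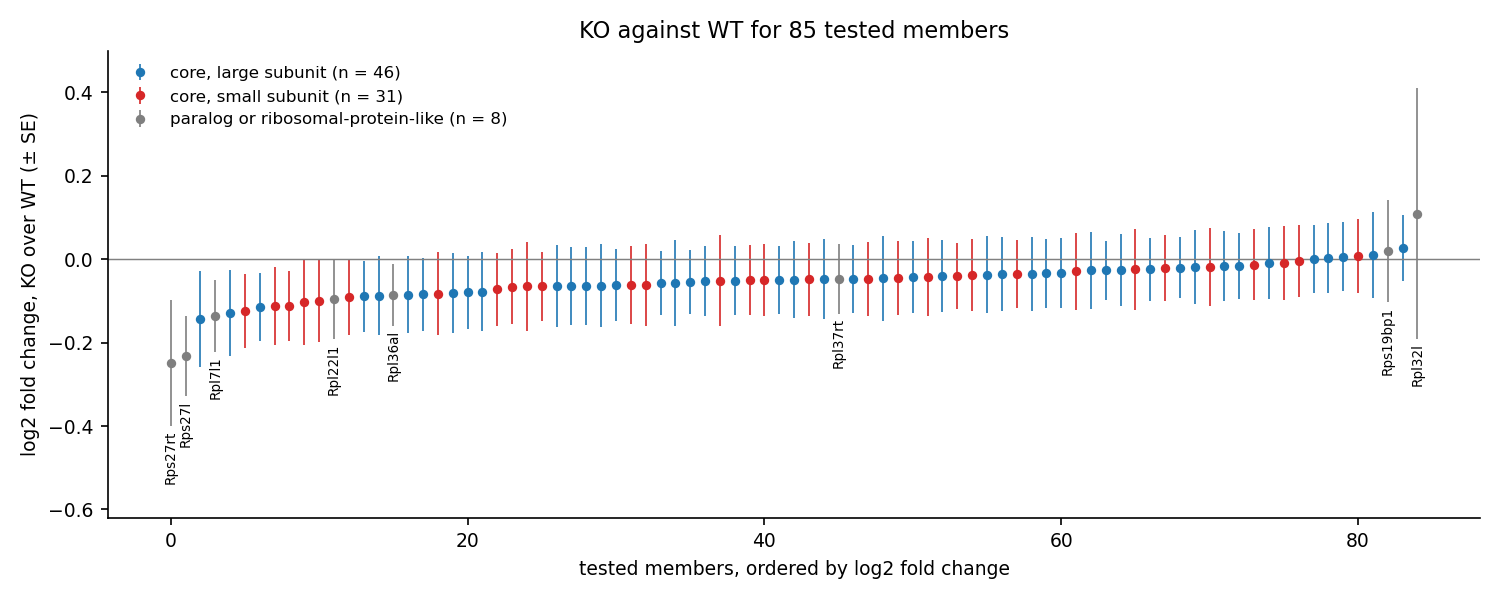
Log2 fold change of KO over WT (y axis) with its standard error for the 85 tested members, ordered from lowest to highest, with core large-subunit genes in blue, core small-subunit genes in red and the 8 paralogs and related genes in grey with their names. The core genes lie in a narrow band between -0.14 and 0.03, and the widest error bars belong to Rps27rt and Rpl32l, which have few counts.

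The members varied from library to library together, in a pattern that crossed the genotypes. For each gene the mean log2 CPM over the 6 libraries was subtracted. The core genes then had a median of -0.11, -0.09 and 0.12 in KO replicates 1, 2 and 3, and of -0.03, 0.14 and -0.04 in WT replicates 1, 2 and 3. KO replicate 3 and WT replicate 2 were high, KO replicates 1 and 2 were lowest, and WT replicates 1 and 3 lay between. Above their own mean were 0, 1 and 77 of the 77 core genes in KO replicates 1, 2 and 3, and 18, 77 and 9 in WT replicates 1, 2 and 3. The exception in KO replicate 2 was Rpl7a, a large-subunit protein. Over all tested genes 49.1% to 53.4% lay above their own mean in a library. For the 827 other tested genes under 1 kb it was 27.2%, 39.1% and 72.9% in KO replicates 1 to 3. In WT replicates 1 to 3 it was 63.8%, 67.0% and 37.8%. For the 68 of these at least as abundant as the least abundant core gene, it was 32.4%, 41.2% and 80.9% in KO. In WT it was 57.4%, 70.6% and 14.7%. Both subunits moved alike, since small-subunit genes had medians of -0.11, -0.09 and 0.13 in KO and -0.02, 0.15 and -0.04 in WT, and large-subunit genes of -0.11, -0.09 and 0.12 in KO and -0.03, 0.13 and -0.03 in WT.

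**Figure D2:**
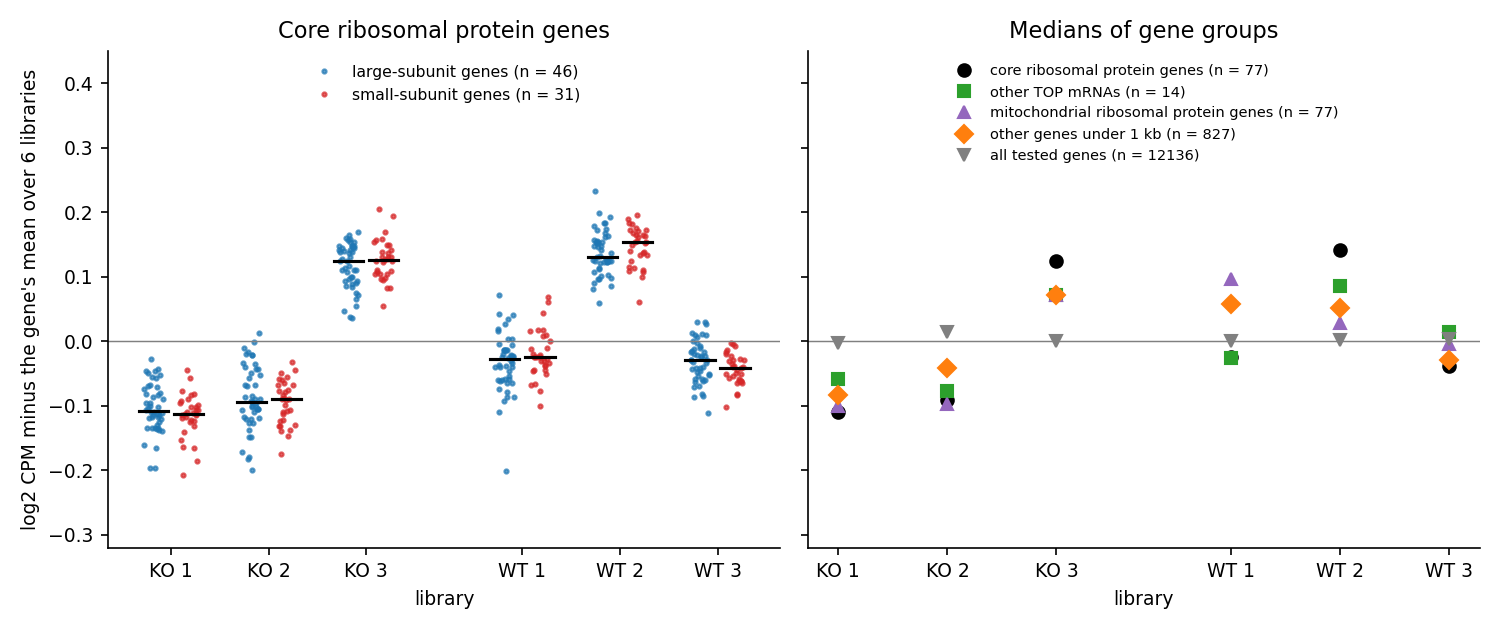
Log2 CPM minus each gene's mean over 6 libraries (y axis), by library, for single core genes with black bars at the medians (left) and as medians of 5 gene groups (right). All 77 core genes lie above 0 in KO replicate 3 and in WT replicate 2, while the median over all tested genes stays near 0 in every library.

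The standard deviation of log2 CPM over the 6 libraries had a median of 0.109 for core genes and 0.147 for other tested genes. It was 0.0999 for other genes at least as abundant as the least abundant core gene. Once the core median of each library was taken off, the median standard deviation of the core genes was 0.0354. Most of the variation of a core gene between libraries was therefore common to the core genes. They share the libraries, their depth and their short length, and the part of these was not tested. The same step was not run on other gene groups, so the 0.0354 has no matched value beside it. Of the 85 tested members, 67 had a transcript under 1 kb. The 827 other tested genes under 1 kb had medians of -0.08, -0.04 and 0.07 in KO replicates 1 to 3 and 0.06, 0.05 and -0.03 in WT replicates 1 to 3. The 3427 other genes of 4 kb or more had 0.03, 0.02 and -0.03 in KO and -0.02, -0.01 and 0.02 in WT. Short genes thus followed the core genes in sign in 5 of 6 libraries, at smaller size, and the part of transcript length in the pattern was not tested. Within the core genes, the 26 with the shortest coding sequence had a median log2 fold change of -0.06, the next 26 of -0.05 and the 25 longest of -0.03.

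Other gene groups that belong to translation gave partly the same order of libraries. The 14 other mRNAs known to carry a TOP motif, among them elongation factors and Pabpc1, had medians of -0.06, -0.08 and 0.07 in KO replicates 1 to 3 and -0.03, 0.09 and 0.01 in WT replicates 1 to 3, the same signs as the core genes in 5 of 6 libraries. The 77 mitochondrial ribosomal protein genes had -0.10, -0.10 and 0.07 in KO, but 0.10, 0.03 and -0.00 in WT, with WT replicate 1 highest. Their median log2 fold change was -0.09, with 60 of 77 negative, and that of the other TOP mRNAs was -0.04 (11 of 14 negative, 0 called).

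As a share of all counts, the members made up 3.79%, 3.69% and 4.30% in the KO libraries, against 3.90%, 4.28% and 3.95% in the WT libraries. The highest share was in KO replicate 3 and the lowest in KO replicate 2, so the groups overlapped. The 95% Wilson intervals, which cover counting error only, were 3.782% to 3.799%, 3.678% to 3.694% and 4.291% to 4.309% in KO, and 3.889% to 3.906%, 4.273% to 4.291% and 3.938% to 3.956% in WT, so counting error was far smaller than the spread between libraries. The means were 3.93% ± 0.328 in KO and 4.04% ± 0.209 in WT (SD, n = 3 each), a difference of -0.117 percentage points that lay within the spread. It was -0.304 without KO replicate 3, -0.0494 without KO replicate 1, 0.00272 without KO replicate 2, -0.189 without WT replicate 1 and 0.00297 without WT replicate 2, so its size and sign rested on single libraries. Counts in large-subunit genes over counts in small-subunit genes were 1.395, 1.396 and 1.373 in KO and 1.37, 1.373 and 1.396 in WT. This ratio of the subunits held within a narrow range while the share differed 1.17-fold between the highest and the lowest library.

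**Figure D3:**
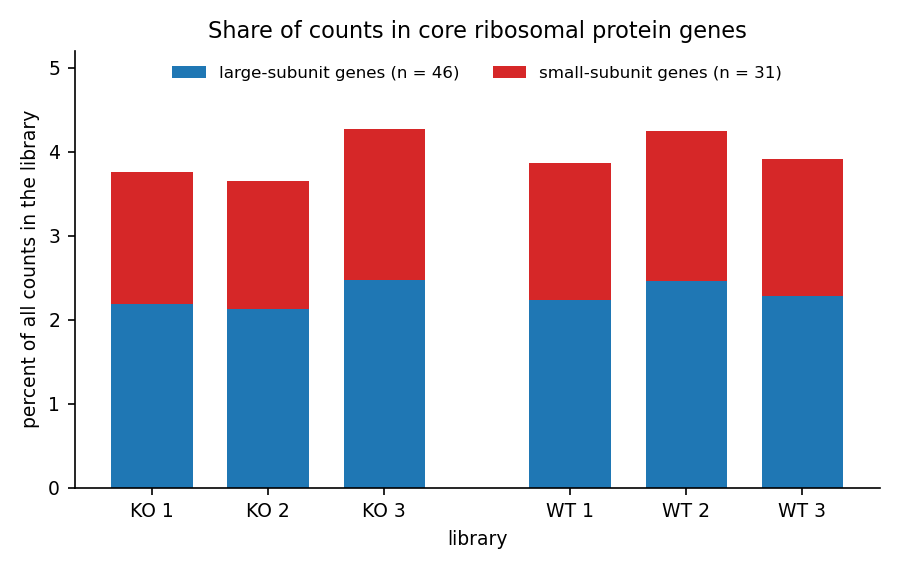
Percent of all counts of each library (y axis) that fell in the 46 core large-subunit genes (blue) and the 31 core small-subunit genes (red, stacked on top), KO libraries left of WT libraries. KO replicate 3 and WT replicate 2 have the tallest bars, with about the same proportion of the subunits in every bar.

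Levels per coding length spread widely, in a measure that divides the counts of whole transcripts by the coding part alone. In CPM per kb of coding sequence, the WT means of the core genes ran from 413 for Rpl21 to 7230 for Rpl41, a 17.5-fold range, with a median of 1040 and the quartiles at 771 and 1220. Rpl41, which encodes the smallest ribosomal protein from 78 coding bases, was at 6550 in KO and 7230 in WT. Rps29 followed with 2790 in KO and 2860 in WT, Rplp1 with 2170 in KO and 2240 in WT, and Rpl39 with 1890 in KO and 2000 in WT. The coding sequences of those 4 genes are 78, 171, 345 and 156 bases long, in transcripts of 437, 390, 499 and 612 bases. Reads from the untranslated parts are counted in these values too. The measure therefore raises genes with a short coding sequence, and the range above is not one of transcript numbers. Among the tested members with an annotated coding sequence, the lowest was Rps19bp1, at 35.4 in KO and 35.0 in WT. It encodes a protein that binds Rps19 and is no part of the ribosome. Next came Rps27rt (39.7 in KO and 47.2 in WT) and Rpl7l1 (103 in KO and 114 in WT). Rpl32l and Rpl37rt had no annotated coding sequence and were not ranked. How reads shared by near-identical copies were counted was not stated. The share of a transcript's 50-base stretches found in no other annotated gene ran from 1.4% for Rps27 to 100%. The 38 core genes with the lower shares had a median of 844 CPM per kb in WT and a median log2 fold change of -0.05, and the 39 with the higher shares 1170 CPM per kb and -0.05.

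**Figure D4:**
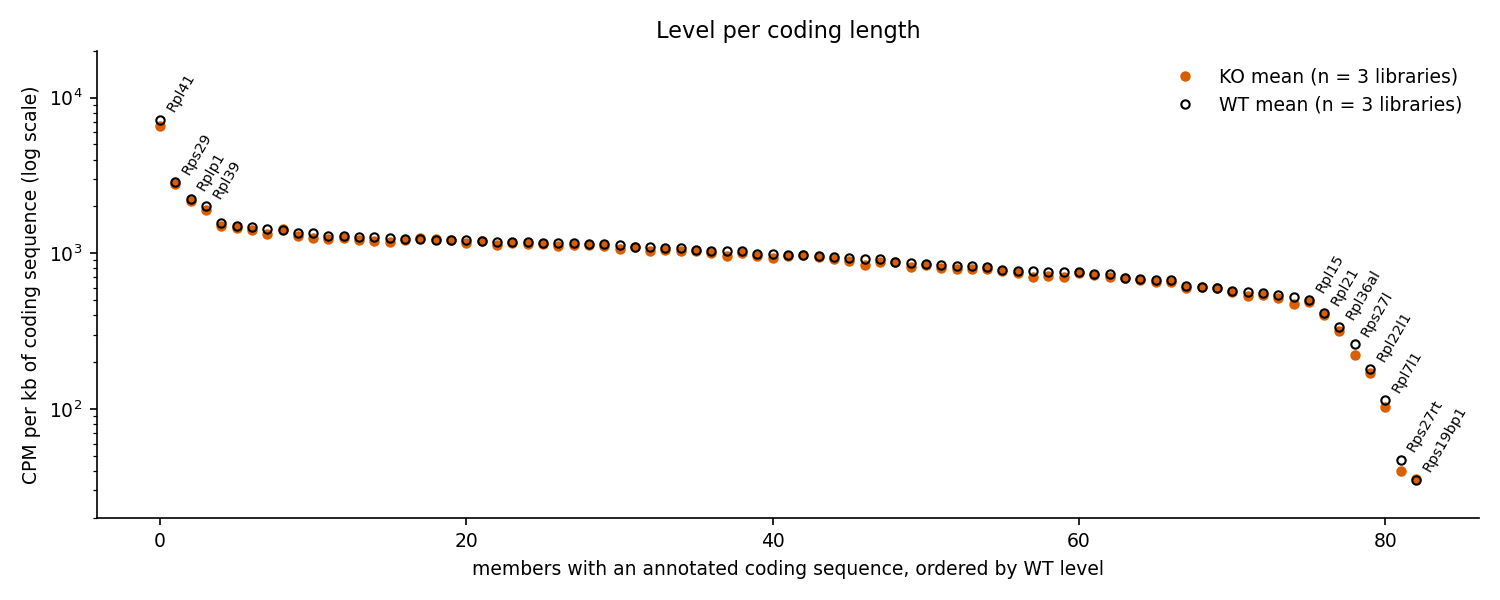
Mean CPM per kb of coding sequence on a log axis (y axis) for the 83 tested members with an annotated coding sequence, ordered by the WT mean, with KO means as filled and WT means as open circles (n = 3 libraries each). Rpl41 stands highest and the paralogs and related genes form the low end, and the KO and WT symbols nearly coincide.

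Among large-subunit proteins, the acidic stalk proteins Rplp0, Rplp1 and Rplp2 recruit the elongation factors. Rplp0 had 1350, 1320 and 1490 CPM in the KO libraries, against 1340, 1530 and 1390 CPM in the WT libraries (log2 -0.03, SE 0.0839, edgeR adjusted p = 0.943). The groups overlapped, with WT replicate 2 and KO replicate 3 highest. Rplp1 (log2 -0.05, SE 0.0957) and Rplp2 (log2 -0.08, SE 0.0872) were likewise within the spread. Rpl5 and Rpl11 carry the 5S ribosomal RNA and, when free, bind MDM2, the ubiquitin ligase that restrains p53. Rpl5 averaged 712 ± 75.3 CPM in KO and 744 ± 56.2 CPM in WT, and Rpl11 averaged 479 ± 31.4 CPM in KO and 498 ± 23.3 CPM in WT (SD, n = 3 each). Rpl13a, known in human myeloid cells for leaving the ribosome after interferon gamma to join a complex that represses inflammatory mRNAs, had 771, 794 and 902 CPM in KO, against 870, 931 and 822 CPM in WT (log2 -0.09, SE 0.0853, edgeR adjusted p = 0.843). Only KO replicate 3 reached into the WT range.

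Rpl41 had the most negative value of the core genes. It had 466, 470 and 596 CPM in the KO libraries, against 561, 627 and 503 CPM in the WT libraries (log2 -0.14, SE 0.115, edgeR adjusted p = 0.807). KO replicate 3 exceeded WT replicates 1 and 3, so the groups overlapped. Its log2 fold change was -0.27 without KO replicate 3 and -0.05 without WT replicate 2. Rpl23a, which lies at the exit of the peptide tunnel, had the smallest p of the core genes and read 318, 315 and 360 CPM in KO, against 345, 385 and 346 CPM in WT (log2 -0.11, SE 0.0813, edgeR adjusted p = 0.791). On the positive side, Rpl28 had 480, 483 and 560 CPM in KO, against 487, 535 and 495 CPM in WT (log2 0.01, SE 0.0831, edgeR adjusted p = 0.99). Rpl27a (log2 0.01) was also positive, as was the small-subunit gene Rps10 (log2 0.01). Rpl27a had the widest spread of the core genes between WT libraries, at 378, 488 and 437 CPM, against 407, 428 and 479 CPM in KO.

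Among small-subunit proteins, Rps6 is the substrate of the S6 kinases downstream of mTORC1. Rps6 had 505, 502 and 585 CPM in the KO libraries, against 553, 630 and 552 CPM in the WT libraries (log2 -0.12, SE 0.0888, edgeR adjusted p = 0.791). KO replicates 1 and 2 lay below every WT library and KO replicate 3 within the WT range. Its log2 fold change ran from -0.20 to -0.05 when single libraries were left out. Rpsa, which is also known as a laminin receptor, averaged 1000 ± 77.5 CPM in KO and 1030 ± 83.3 CPM in WT (SD, n = 3 each). Rps27a is made as a fusion with ubiquitin and had a log2 fold change of -0.10 (SE 0.103). The ubiquitin-like fusion Fau and Rack1, a scaffold on the small subunit, are ribosomal components whose symbols lie outside the naming rule. Fau had a log2 fold change of -0.05 and Rack1 of 0.01, and both lay above their own mean only in KO replicate 3 and WT replicate 2.

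Of 20 genes mutated in human Diamond-Blackfan anaemia, a failure of red cell production caused by ribosomal protein loss, 0 were called and 19 had values under 0 (median log2 fold change -0.06). All 20 are themselves core genes. That all 20 lay above their own mean in KO replicate 3 and in WT replicate 2 therefore only repeats the core pattern. The 3 with the smallest p were Rpl35a (log2 -0.13, SE 0.104), Rps7 (log2 -0.09, SE 0.0903) and Rpl31 (log2 -0.08, SE 0.0881).

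The paralogs and related genes had the largest fold changes on both sides, and they have the fewest counts. Rps27l, a paralog of Rps27 known as a p53 target (NCBI Gene 67941, GRCm38 chromosome 9, 66946086 to 66949516, plus strand), had the smallest p of all 85. It had 53.7, 51.1 and 64.4 CPM in the KO libraries, against 67.6, 69.3 and 61.8 CPM in the WT libraries. KO replicate 3 exceeded WT replicate 3, so the groups overlapped. The means were 56.4 ± 7.07 CPM in KO and 66.2 ± 3.95 CPM in WT (SD, n = 3 each), the log2 fold change was -0.23 (SE 0.0967), and the p of 0.0378 with edgeR became an adjusted p of 0.713. The parent gene Rps27 had 228, 241 and 299 CPM in KO, against 255, 291 and 251 CPM in WT (log2 -0.05, SE 0.109). Counts of Rps27l were 23.5%, 21.2% and 21.5% of those of Rps27 in KO, against 26.5%, 23.9% and 24.7% in WT. Here the groups did not overlap, as KO replicate 1 lay just below WT replicate 2. The two-sided exact permutation p was 0.1, the smallest that 3 against 3 libraries can give, and 0.233 after adjustment over the 7 ratios computed, which were chosen after the values had been seen.

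Coding bases 6 to 50 of Rps27l and of Rps27, counted from the A of the start codon, are shown because they let reads of the paralogs be told apart, with the 16 bases that differ in capitals.
Rps27l: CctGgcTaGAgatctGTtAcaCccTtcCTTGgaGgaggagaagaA
Rps27: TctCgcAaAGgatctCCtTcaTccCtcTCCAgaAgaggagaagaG
Over the 255 aligned coding bases they were 76.1% identical. The retrogene Rps27rt (chromosome 9, 114982366 to 114982739, minus strand) was identical to Rps27 over all 255 coding bases, so their reads can be told apart only outside the coding sequence and the counts of both are uncertain. Rps27rt had 9.09, 9.40 and 11.9 CPM in KO, against 10.4, 12.5 and 13.3 CPM in WT (log2 -0.25, SE 0.151, edgeR adjusted p = 0.758). KO replicate 3 exceeded WT replicate 1. Its counts relative to Rps27 were 3.98%, 3.90% and 3.97% in KO, against 4.06%, 4.30% and 5.29% in WT (exact permutation p = 0.1, adjusted 0.233).

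Rpl7l1, an Rpl7-like protein whose coding sequence was 50.3% identical to that of Rpl7, had 81.0, 73.6 and 75.4 CPM in KO, against 93.1, 76.3 and 83.2 CPM in WT (log2 -0.14, SE 0.0859, edgeR adjusted p = 0.775). It departed from the core pattern, since WT replicate 1 and not WT replicate 2 was highest. Rpl22l1, the paralog of Rpl22 (66.9% identical), stood at 30.6%, 31% and 29.4% of the Rpl22 counts in KO, against 30.8%, 31.9% and 29.1% in WT (exact permutation p = 0.9), and its log2 fold change was -0.10. Rpl36al, 87.9% identical to Rpl36a, stood at 57.3%, 64.0% and 54.9% of the Rpl36a counts in KO, against 65.2%, 56.3% and 60.8% in WT (exact permutation p = 0.6). Rpl37rt, a retrotransposed copy of Rpl37, had a log2 fold change of -0.05 and Rps19bp1 of 0.02. Rpl32l, at 1.30, 1.21 and 1.68 CPM in KO and 1.28, 1.41 and 1.20 CPM in WT, had the highest fold change of the 85 (log2 0.11, SE 0.301). Its counts relative to Rpl32 were 0.285%, 0.259% and 0.31% in KO, against 0.255%, 0.248% and 0.247% in WT (exact permutation p = 0.1, adjusted 0.233), so all KO libraries lay above all WT libraries, at 23 to 34 Rpl32l counts a library.

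The 3 members below the count filter are paralogs known from muscle or testis. Rpl10l, a testis paralog of Rpl10, had a count of 0 in every library, which allows for up to 3 counts in each. Rpl39l, a testis paralog of Rpl39, had counts of 0, 6 and 11 in KO and 1, 4 and 0 in WT. Rpl3l, the muscle paralog of Rpl3, had counts of 6, 0 and 2 in KO and 1, 2 and 5 in WT. These counts are too few for a comparison, while the parents Rpl3, Rpl10 and Rpl39 averaged 939 ± 60.7, 541 ± 32.5 and 294 ± 35.3 CPM in KO and 950 ± 55.3, 550 ± 26.3 and 312 ± 20.1 CPM in WT (SD, n = 3 each).

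**Figure D5:**
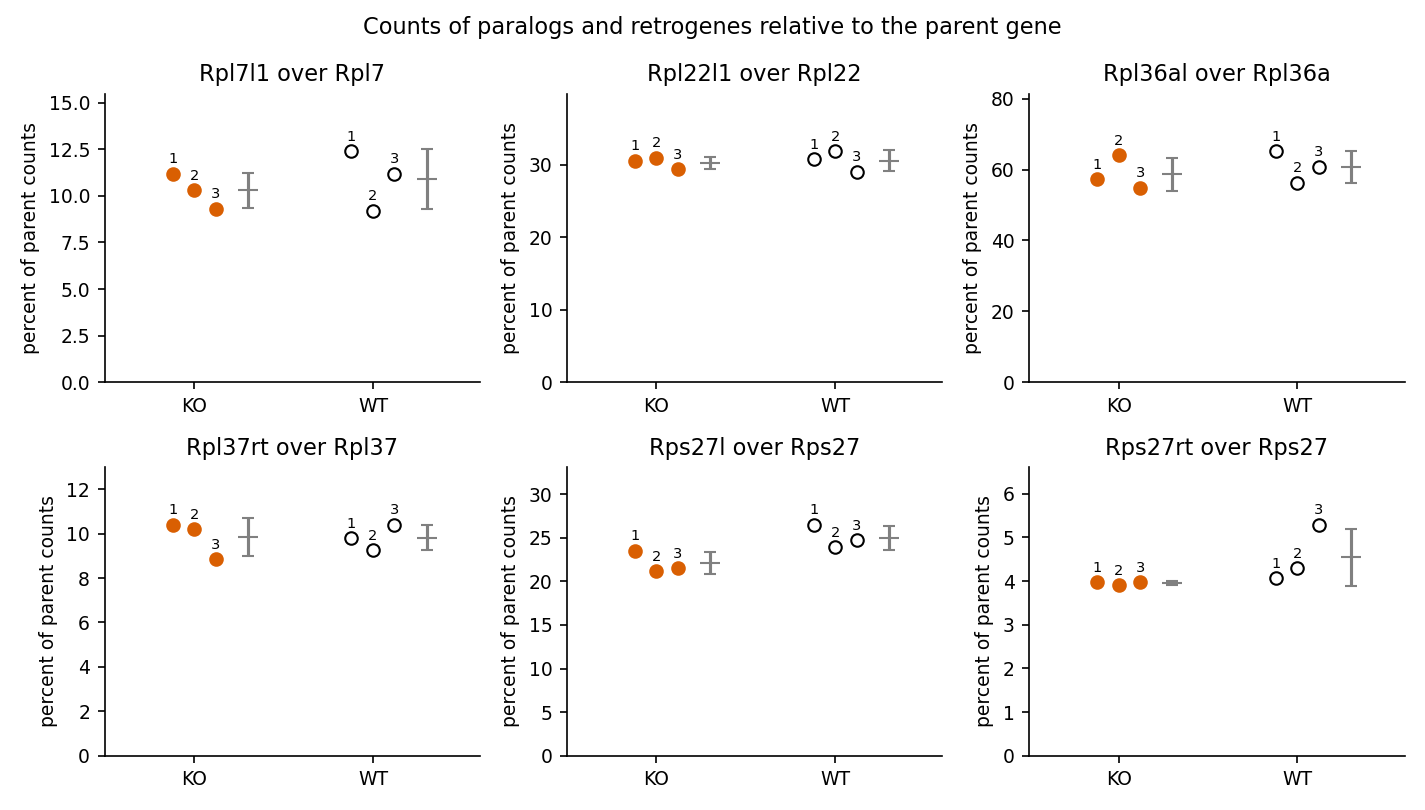
Counts of a paralog or retrogene as a percent of its parent gene's counts (y axis, from 0) in KO (filled) and WT (open) libraries, numbered by replicate, with mean ± SD in grey (n = 3 each). Rps27l over Rps27 and Rps27rt over Rps27 are the plotted pairs whose KO points all lie below the WT points, and the other 4 plotted pairs overlap. Rpl32l over Rpl32, under 1%, is not plotted, and its KO values all lie above its WT values.

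Genes that act on ribosomal proteins or their mRNAs were read from lists, and none was called with edgeR. Of all tested genes, 3.06% were lower in KO at an unadjusted edgeR p under 0.05. Of 17 genes of the mTORC1 pathway and its TOP mRNA regulators, 9 were negative (median log2 fold change -0.01) and 2 were lower in KO at an unadjusted p under 0.05. Larp1, which binds the TOP motif, had 205, 213 and 215 CPM in the KO libraries, against 265, 229 and 240 CPM in the WT libraries (log2 -0.21, SE 0.0746, edgeR adjusted p = 0.701). All KO libraries lay below all WT libraries, as they did for 6.3% of all tested genes. Eif4ebp2, a repressor of cap-dependent translation that mTORC1 inactivates, had 115, 108 and 108 CPM in KO, against 131, 115 and 126 CPM in WT (log2 -0.17, SE 0.0729, edgeR adjusted p = 0.713). Of 15 dedicated chaperones and assembly factors, 13 were negative (median -0.09) and 1 had an unadjusted p under 0.05. That was Rrs1, which helps place the 5S particle, at 34.5, 30.4 and 35.4 CPM in KO and 40.6, 38.8 and 38.4 CPM in WT (log2 -0.23, SE 0.0844, edgeR adjusted p = 0.702).

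Of 12 genes of RNA polymerase I and its factors, which make ribosomal RNA, 5 were negative (median 0.01) and none had an unadjusted p under 0.05. Of 8 genes of the p53 axis, 1 was negative (median 0.07). At an unadjusted edgeR p under 0.05, 1 of them, Bbc3, was higher in KO, as were 3.86% of all tested genes. Bbc3, which encodes the apoptosis inducer PUMA, had 12.7, 15.4 and 13.0 CPM in KO, against 8.11, 11.5 and 9.32 CPM in WT (log2 0.50, SE 0.153, edgeR adjusted p = 0.701). Its KO libraries all lay above its WT libraries, as they did for 6.11% of all tested genes.

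Lists outside translation were read as counts and sums, and edgeR called none of their genes. Of all tested genes, 3.06% were lower and 3.86% were higher in KO at an unadjusted edgeR p under 0.05. All 12 genes of cycling cells were negative (median log2 -0.21, 5 at an unadjusted p under 0.05), and their sum was 1090 to 1290 CPM in KO and 1310 to 1430 CPM in WT. Of 16 immediate early and dissociation stress genes 1 was negative (median log2 0.27, 8 at an unadjusted p under 0.05), and their sums, 12000 to 14000 CPM in KO and 9570 to 12100 CPM in WT, overlapped. Among tested neutrophil markers 4 of 7, and among T and NK cell markers 2 of 10, were higher in KO at an unadjusted p under 0.05. Of the 10 macrophage markers 7 were negative (median log2 -0.10), with 2 lower and 0 higher in KO at that threshold. By library, the cycling genes had medians of -0.12, -0.24 and 0.05 in KO replicates 1 to 3 and 0.14, 0.04 and 0.15 in WT replicates 1 to 3, and the T and NK cell markers of -0.49, 1.01 and -0.06 in KO and -0.45, -0.09 and 0.17 in WT. The 7 fibroblast and endothelium markers had medians of -0.04, 0.01 and 0.27 in KO and 0.00, 0.17 and -0.08 in WT, highest in KO replicate 3 and WT replicate 2. The single markers were split, unlike the core genes. Above their own mean were 3, 4 and 4 of the 7 in KO replicates 1 to 3, and 4, 5 and 2 in WT replicates 1 to 3. The part of these cells and states in the values of the ribosomal protein genes was not tested.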

How the data were processed

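Per the labels' protocols, TruSeq stranded mRNA libraries were made from RNA isolated with a mirVana kit. Per the submitters' processing notes, the tools were Trimmomatic, HISAT2, Cufflinks and HTSeq, and the build was mm10, with no version or role stated. The authors deposited raw read counts per gene. How strand and multiply mapped reads were handled is not given in the sources used here. Genes with near-identical copies and overlapping genes are uncertain.

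All 6 libraries were fitted together with edgeR 4.0.16 in R 4.3.3 (filterByExpr, TMM factors, robust quasi-likelihood test, genotype as the only term). The fit covered 12136 genes and 99.962% of reads, and p-values were adjusted by Benjamini-Hochberg over all of them. The fit was tested on simulated counts. CPM use TMM-scaled totals. Lengths, coordinates and coding sequences came from GENCODE M21 (GRCm38), and start-site sequences from RefSeq (GRCm38.p6).

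The members and lists were chosen with earlier results of these data known. Rpl32l and Rpl37rt were put with the paralogs after the table had been read. Genes were named by rule: the 6 members with the smallest p in each direction, the paralogs with their parents, genes with known roles (stalk, 5S particle, Rps6, Rpl13a, Rpsa, Rps27a), the 3 highest, lowest and most variable by level, and up to 3 genes of each list with the smallest p. Other genes named beside the start-site sequences, or as an exception, were chosen after their values were seen. A few genes that the rule names are not reported here. No pair of libraries of a group agreed within sampling noise (chi-square per degree of freedom at least 7.93). Alternatives were other scaling factors and filters, DESeq2 1.42.0, limma-voom (limma 3.58.1), a replicate block and each library left out.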

Additional observations from a re-analysis of the deposited data

How the results depend on the processing

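Of the 88 genes, 0 were called under every setting run. Over all genes the count of calls was 2. It was 1 with RLE factors, upper-quartile factors, library totals alone or no filter, 0 with a filter of 1 CPM in 3 libraries, 0 with limma-voom with or without quality weights and 29 with DESeq2, and between 0 and 5 without single replicates. Of the list genes DESeq2 called 3 (Mki67, Hspa1a and Hspa1b), and leaving out single replicates called 0 to 1. Replicate numbers did not pair the libraries (correlations of same-numbered deviations -0.057, -0.094 and -0.109), and with the replicate as a block 1 gene was called over all genes and 0 members. Trmt61a stayed negative but missed the threshold with 1 CPM in 3 libraries (log2 -1.806, adjusted p = 0.0571), limma-voom (-1.815, 0.0521), quality weights (-1.79, 0.0542) and the block (-1.823, 0.103), and without single replicates it ran from -1.94 to -1.693, with an edgeR adjusted p of up to 0.314. Counts limit the genes of few reads, such as Rpl32l, most.

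Signs close to 0 were unstable, and the cause was not tested. With limma-voom quality weights Rpl27a was at -0.024, Rps10 at -0.019, Rpl28 at -0.007 and Rack1 at -0.002. Rps4x, at -0.004, was at 0.0 with upper-quartile factors, 0.001 with library totals or no filter and 0.005 with the 1 CPM filter. Scaling to the core ribosomal protein sum, chosen after seeing the data, left 48 of 85 negative with a median of -0.003 and moved the median of all genes to 0.047. Under it Rpl37rt came to 0.001, Rpl3 to 0.032, Rpl10 to 0.023, Rpl36a to 0.009, Rps4x to 0.043, Rps19 to 0.006, Rplp0 to 0.015, Rpsa to 0.002 and Rps29 to 0.011. Without single replicates, the log2 fold change ran for Rpl32l from -0.043 to 0.202, Rps19bp1 from -0.053 to 0.102, Rpl27a from -0.078 to 0.109, Rps10 from -0.066 to 0.072 and for Rpl28 from -0.068 to 0.055. It ran for Rpl3 from -0.061 to 0.039, Rpl7 from -0.105 to 0.010, Rpl10 from -0.071 to 0.023, Rpl36a from -0.124 to 0.025, Rps4x from -0.073 to 0.062 and for Rps27 from -0.176 to 0.026. The range was, for Rps19 from -0.115 to 0.043, Rplp0 from -0.086 to 0.031, Rplp1 from -0.137 to 0.028, Rpl5 from -0.152 to 0.007, Rpsa from -0.108 to 0.030 and for Rps29 from -0.098 to 0.014. Likewise it ran for Fau from -0.112 to 0.040 and for Rack1 from -0.069 to 0.074. Of the named genes that kept a negative sign, values moved by over 1.5 times for Rpl41 from -0.265 to -0.052, Rpl35a from -0.247 to -0.054, Rps27a from -0.213 to -0.028, Rps6 from -0.197 to -0.051, Rpl7l1 from -0.194 to -0.056, Rpl23a from -0.176 to -0.053 and for Rpl13a from -0.157 to -0.034, among others. Rps27l ran from -0.335 to -0.165. The difference in read share ran from -0.304 to 0.00297.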
